A study of Mus musculus with 4 samples.

Results

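The mRNA levels of 7 genes that set the electrical excitability of the muscle fibre membrane, Scn4a, Clcn1, Atp1b1, Atp1b2, Kcnj11, Kcna7 and Kcnc4, were compared between old and young muscle, the tibialis anterior (TA) that lifts the foot. The genes were chosen by symbol, and each matched 1 locus among the 20340 gene labels that had a value in all samples. The muscles came from healthy C57BL/6 mice aged 3 months (Young) or 20 months (Old), wild type and untreated at both ages. Each age had 2 samples, named Young 1, Young 2, Old 1 and Old 2, and the age comparison asks which genes change in the muscle atrophy of ageing. The sources used here do not say whether the 2 samples of an age came from separate animals, so p-values measure only the spread between these samples, which may be technical.

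A muscle fibre contracts after an action potential has run along its surface membrane and into its transverse tubules. The voltage-gated sodium channel Scn4a carries the upstroke, voltage-gated potassium channels such as Kcna7 and Kcnc4 carry outward current that ends it, and the chloride channel Clcn1 holds the resting membrane near its resting voltage and damps repeated firing. The Na,K-ATPase, built from a catalytic alpha subunit and a glycosylated beta subunit (Atp1b1 or Atp1b2), pumps sodium out and potassium back in after each action potential, and Kcnj11 forms the pore of the ATP-sensitive potassium (KATP) channel, which opens when the fibre runs short of ATP. Mutations of Clcn1 or Scn4a cause myotonia, in which the fibre keeps firing, and some mutations of Scn4a cause periodic paralysis.

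Of the 7 genes, Atp1b1 was the 1 whose difference between ages passed the test, and it was 1.85-fold lower in Old than in Young. Atp1b2, another beta subunit, was the most abundant of the 7 transcripts in every sample, and its 1.09-fold higher level in Old did not pass. Scn4a was 1.25-fold higher and Kcnc4 1.28-fold lower in Old, and neither passed the threshold of an adjusted p of 0.05. Clcn1, Kcna7 and Kcnj11 differed by 1.08-fold or less.

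Promoter sequences, the 250 bases before the RefSeq transcription start, are shown for the gene that fell with age and for Clcn1 and Kcna7, whose levels moved most closely together. They are from RefSeq on GRCm38.p6, the assembly of mm10, and are written 5′ to 3′ on the strand of the gene. Capitals mark every match on either strand to the E-box CANNTG, bound by myogenic factors, the GC box GGGCGG, the sequence TATAAA of the TATA box and the MEF2 motif, searched as exact letters. Atp1b1 is at chr1:164458356-164458605 on the minus strand, Clcn1 at chr6:42286435-42286684 on the plus strand and Kcna7 at chr7:45405710-45405959 on the plus strand. The Kcna7 window starts 57 bases inside the gene as GENCODE draws it, because the RefSeq start lies 307 bases downstream of the start in GENCODE. None of this window is therefore upstream of the GENCODE start.
Atp1b1: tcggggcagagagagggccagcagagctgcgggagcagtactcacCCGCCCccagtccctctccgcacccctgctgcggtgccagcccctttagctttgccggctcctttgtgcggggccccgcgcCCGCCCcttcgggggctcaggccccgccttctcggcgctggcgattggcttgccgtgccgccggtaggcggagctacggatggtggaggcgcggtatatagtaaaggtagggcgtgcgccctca
Clcn1: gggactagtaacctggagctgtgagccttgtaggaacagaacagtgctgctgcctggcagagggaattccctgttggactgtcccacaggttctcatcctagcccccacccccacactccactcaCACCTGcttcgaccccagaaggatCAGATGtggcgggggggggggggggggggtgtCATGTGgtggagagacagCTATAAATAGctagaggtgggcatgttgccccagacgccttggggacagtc
Kcna7: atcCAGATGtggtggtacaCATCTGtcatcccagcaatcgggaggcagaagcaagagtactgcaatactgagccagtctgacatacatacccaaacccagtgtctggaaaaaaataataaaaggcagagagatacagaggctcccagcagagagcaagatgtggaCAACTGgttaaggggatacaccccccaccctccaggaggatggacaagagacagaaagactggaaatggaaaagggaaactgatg
The Atp1b1 window held 2 GC boxes, no E-box and 70.4% G and C. The Clcn1 window held 3 E-boxes, of which 1 was CAGGTG on the other strand, and a TATA box inside a MEF2 match. The Kcna7 window also held 3 E-boxes, with none of the other motifs. Among all 32851 windows of the same length, 66.2% held an E-box, 17.2% CAGGTG, 32.7% a GC box, 12.4% a TATA box and 1.69% a MEF2 match, and the median G and C content was 52.4%. A match describes the letters of a window and is not evidence of binding. Of the 7 genes, 5 had an entry in the promoter table. The windows of Scn4a and Kcnc4 are not printed, and Atp1b2 and Kcnj11 had no entry. The RefSeq starts of Scn4a and Kcnc4 lay 3898 and 654 bases inside the gene in GENCODE, further than the 307 of Kcna7.

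The authors deposited FPKM values, which are sequenced fragments scaled by transcript length and by the total of mapped fragments, separately for every sample. Complete values were present for 20605 to 21147 loci per sample, and 10266 genes reached 1 FPKM in at least 2 samples and were tested. Since FPKM hold no counts, the sequencing depth is unknown and counting errors are not given. The 2 samples of an age differed by a factor of about 2 at the median gene, with Old 1 and Young 2 high and Old 2 and Young 1 low. Of the 20340 gene labels, 4270 were listed at 0 in just 1 of the old samples and 4054 in just 1 of the young samples. Each sample was therefore divided by a factor (1.46 for Old 1, 0.678 for Old 2, 0.685 for Young 1 and 1.47 for Young 2) that gave all 4 the same median, and these values are called scaled FPKM. The factor varied with expression, so after scaling Old 1 was above Old 2 by a median log2 of 0.34 for genes at 1 to 3 FPKM, and differed from it by −0.14 at 30 to 100 FPKM, and Young 2 against Young 1 gave 0.29 and −0.14. At 30 to 100 FPKM, where most of the 7 genes lie, log2 ratios spread across genes with a robust SD of 0.048 for the old pair of samples and 0.047 for the young pair, but 0.40 for Old 1 against Young 2. Without counts it cannot be told whether the samples of an age differ by more than sampling noise, as separate libraries would.

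**Figure D1:**
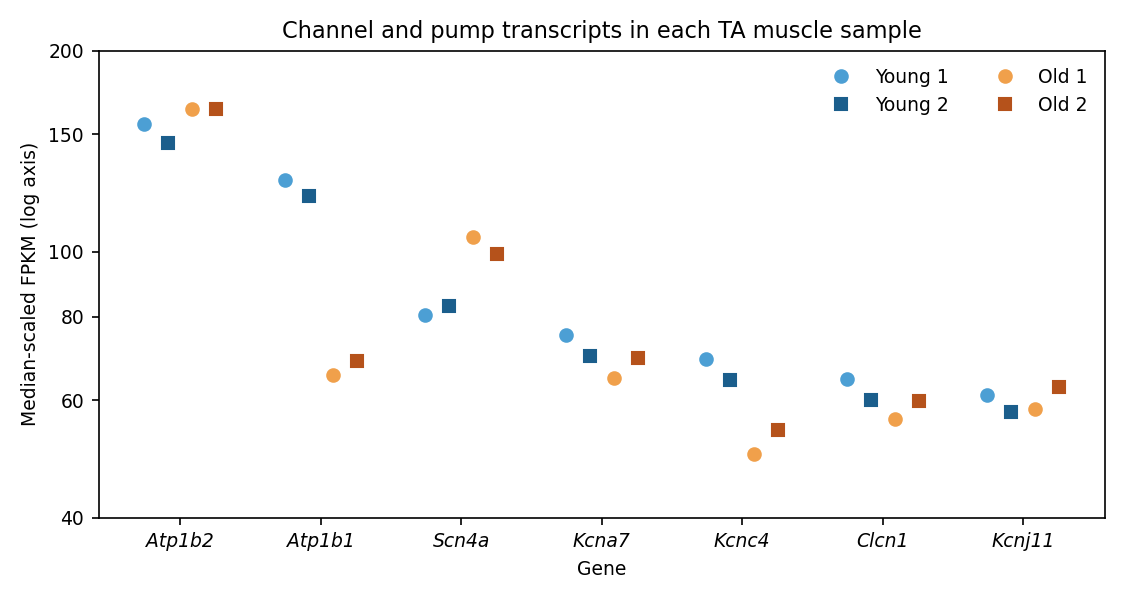
Level of each of the 7 transcripts in each sample, as median-scaled FPKM on a log axis, with circles for replicate 1 and squares for replicate 2 of Young (blue) and Old (orange). Atp1b1 sits at 121 and 128 in the young samples and at 65.4 and 68.7 in the old samples, while the points of Kcnj11 overlap between ages.

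Scn4a, the pore-forming alpha subunit of the skeletal muscle sodium channel, lies at chr11:106317454-106366154 on the minus strand of mm10. It was deposited at 154 FPKM in Old 1 and 67.5 in Old 2, against 55.2 in Young 1 and 122 in Young 2. Scaled, these were 105 and 99.4 FPKM in Old and 80.6 and 83.0 in Young. Old was above Young in every pair of samples, and the means were 102 ± 4.14 (SD, n = 2) in Old and 81.8 ± 1.71 (SD, n = 2) in Young. The log2 difference of Old minus Young was 0.32 (SE 0.067, 95% interval 0.12 to 0.52) and did not pass in limma's test over all genes, with an adjusted p of 0.0695. A difference of that size or more was found in 35.1% of all tested genes. With the filter raised to 1 FPKM in all 4 samples, the same difference had an adjusted p of 0.0436 in limma. That filter called 1143 of 7228 genes as higher. With quantile normalization the adjusted p of Scn4a in limma was 0.134. Of 15 alternative settings, 2 passed the threshold for Scn4a.

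Clcn1, the chloride channel of the fibre surface, lies at chr6:42286674-42324640 on the plus strand. Its deposited values were 82.2 FPKM in Old 1 and 40.6 in Old 2, against 44.3 in Young 1 and 88.3 in Young 2, and the scaled values were 56.2, 59.9, 64.6 and 60.1 FPKM in the same order. The highest old sample and the lowest young sample lay next to each other, and the means of 58.0 ± 2.65 (SD, n = 2) in Old and 62.4 ± 3.15 (SD, n = 2) in Young differed by less than 2 SD. The log2 difference was −0.10 (SE 0.076, 95% interval −0.33 to 0.13, adjusted p in limma 0.477). Ratios between genes within a sample do not change with the scaling, but a factor between samples that differs from gene to gene stays in them. The deposited FPKM of Old 1 were 2.29 times those of Old 2 for Scn4a and 2.02 times for Clcn1. Scn4a per Clcn1 was 1.87 in Old 1 and 1.66 in Old 2, against 1.25 in Young 1 and 1.38 in Young 2, 1.34-fold higher in Old.

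Atp1b1 encodes the beta subunit of the Na,K-ATPase that most tissues use, and brings the alpha subunit to the membrane. The deposited FPKM were 95.8 in Old 1 and 46.6 in Old 2, against 87.7 in Young 1 and 178 in Young 2, and the scaled FPKM were 65.4, 68.7, 128 and 121. The old samples lay far below the young samples, with means of 67.1 ± 2.28 (SD, n = 2) and 125 ± 4.61 (SD, n = 2). The log2 difference was −0.88 (SE 0.069, 95% interval −1.09 to −0.68), with an adjusted p of 0.0246 in limma's test, and 4.43% of all tested genes differed by at least as much. Without scaling, Old 1 had 0.538 of the FPKM of Young 2, and Old 2 had 0.531 of that of Young 1. The factors within each of these pairs are nearly equal, so the ratios repeat the scaled result and are no separate support for it. An exact two-sided permutation test of 2 samples against 2 cannot give a p below 0.333, which is the value it gave for Atp1b1.

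With 1 sample left out, an age keeps a single sample, and fewer of all tested genes were called. A call lost in such a fit therefore cannot show that Atp1b1 depended on that sample. Over all 15 alternatives, the adjusted p of Atp1b1 in limma ranged from 0.00532 to 1.00, with the largest on the FPKM as deposited. It was 0.0819 with no filter, and 8 of the 15 passed. The log2 difference itself stayed between −0.92 and −0.85.

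The locus to which the values of Atp1b1 belong, chr1:164307675-164462094 on the minus strand, is longer than the gene in GENCODE (chr1:164437109-164458355) and reaches across its neighbour Nme7, which is transcribed from the other strand and overlaps the gene by 617 bases. Nme7 was listed at 8.66 FPKM in Old 1, 0 in Old 2 and Young 1 and 18.5 in Young 2, so that Old 1 had 0.468 of the FPKM of Young 2 and the other samples give no ratio. Adding Nme7 to Atp1b1 in each sample left a log2 difference of −0.89. This sum equals Atp1b1 alone in Old 2 and Young 1, so it cannot show whether reads were shared. The part of reads shared with Nme7 in the lower Atp1b1 was not tested.

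Atp1b2, the beta subunit typical of fast muscle fibres and of glia, lies at chr11:69599750-69605960 on the minus strand. It was deposited at 240 FPKM in Old 1 and 111 in Old 2, against 106 in Young 1 and 213 in Young 2, or 164, 164, 155 and 145 scaled FPKM. The old samples were slightly above the young ones, and the log2 difference of 0.12 (SE 0.070, 95% interval −0.08 to 0.33, adjusted p in limma 0.343) did not pass.

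The mRNAs of these 2 beta subunits were therefore present in different proportions at the 2 ages. Atp1b3 and Atp1b4, of the same gene family, had no value here, so the ratio and share below leave them out. The ratio of Atp1b1 to Atp1b2 was 0.400 in Old 1 and 0.420 in Old 2, against 0.824 in Young 1 and 0.836 in Young 2, and so 2.03-fold lower in Old. Atp1b1 made up 28.6% and 29.6% of the summed FPKM of both in the old samples and 45.2% and 45.5% in the young samples. Samples of an age differed by at most 1.01 percentage points in this share, and the ages by at least 15.6.

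Fxyd1, the small membrane protein phospholemman that modulates the pump, was 466 and 509 scaled FPKM in Old and 594 and 545 in Young (log2 difference −0.22, adjusted p in limma 0.215). The differences of the more abundant Atp1b2 and Fxyd1 thus did not pass the test.

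**Figure D2:**
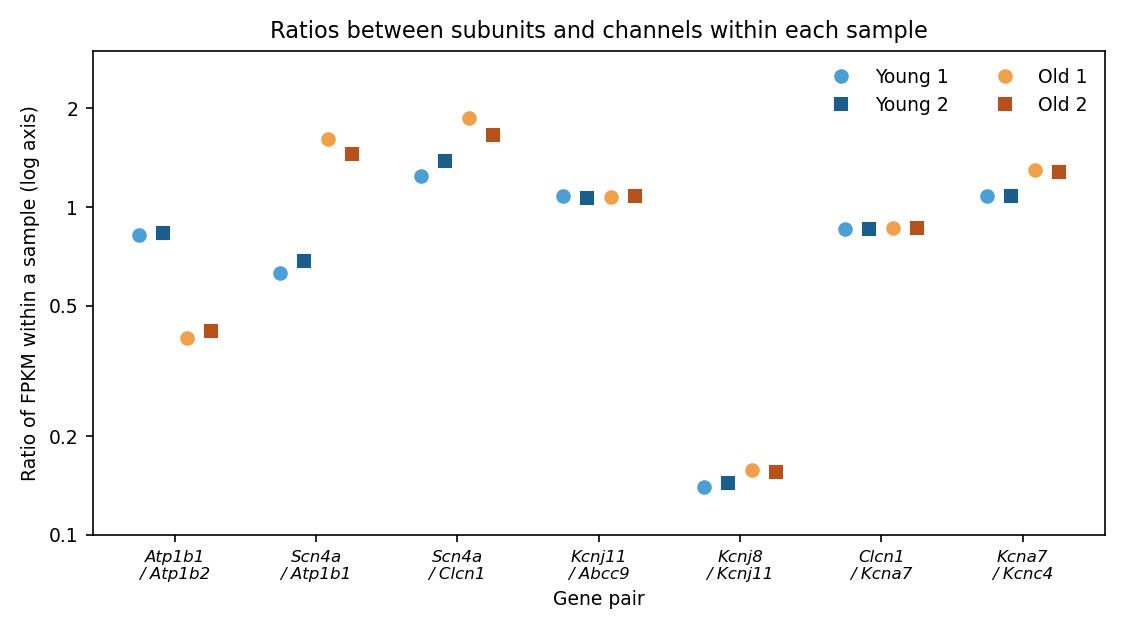
Ratios between the FPKM of gene pairs within each sample, on a log axis, with Young in blue and Old in orange. The ratio of Atp1b1 to Atp1b2 falls from 0.824 and 0.836 in Young to 0.400 and 0.420 in Old, whereas Clcn1 to Kcna7 lies between 0.860 and 0.866 in all 4 samples.

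Kcnj11, the inwardly rectifying pore of the KATP channel, lies at chr7:46093616-46102844 on the minus strand. It was deposited at 85.3 FPKM in Old 1 and 42.7 in Old 2, against 41.9 in Young 1 and 84.6 in Young 2, and was 58.2 and 62.9 scaled FPKM in Old and 61.2 and 57.6 in Young. The ages overlapped, and it was the member with the smallest log2 difference, 0.03 (SE 0.077, 95% interval −0.20 to 0.26, adjusted p in limma 0.928). A difference at least as large was found in 93.0% of all tested genes, and its sign changed when Old 2 or Young 2 was left out.

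The regulatory subunit Abcc9 (SUR2), which joins Kcnj11 in muscle, kept pace with it, with 54.3 and 58.0 scaled FPKM in Old and 56.6 and 54.2 in Young. Kcnj11 per Abcc9 was 1.07 in Old 1 and 1.08 in Old 2, against 1.08 in Young 1 and 1.06 in Young 2. Abcc8 (SUR1), the regulatory subunit of pancreatic beta cells, was at 0.815 to 1.73 scaled FPKM in the 4 samples, and Kcnj8, the KATP pore of blood vessels, at 8.27 to 9.78. Kcnj8 per Kcnj11 was 0.158 and 0.156 in Old and 0.140 and 0.144 in Young. Of the 4 genes of this channel, 0 passed in limma and 0 had an unadjusted p under 0.05, at log2 differences from 0.02 for Abcc9 to 0.18 for Abcc8.

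Other inward rectifiers set the resting voltage of the fibre together with Clcn1. Kcnj2, the main such channel of muscle, was 18.2 and 20.6 scaled FPKM in Old and 8.502 and 7.41 in Young, and it rose with a log2 difference of 1.19 (SE 0.105, adjusted p in limma 0.0268). Kcnj12, a close relative that assembles with Kcnj2, was 16.5 and 18.6 in Old and 24.1 and 21.6 in Young (log2 difference −0.36, adjusted p in limma 0.104). In Young both samples had more Kcnj12 than Kcnj2, and in Old the pair was at like levels.

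Kcna7, a Shaker-type delayed rectifier enriched in skeletal and cardiac muscle, lies at chr7:45405363-45412087 on the plus strand. Its deposited FPKM were 94.96 in Old 1 and 47.0 in Old 2, against 51.5 in Young 1 and 103 in Young 2, and its scaled FPKM were 64.8, 69.3, 75.1 and 69.9. The ages met at 69.3 in Old 2 and 69.9 in Young 2, and the log2 difference of −0.11 (SE 0.078, 95% interval −0.34 to 0.12, adjusted p in limma 0.447) did not pass.

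Kcnc4, a Shaw-type channel that activates at high voltage and inactivates fast, lies at chr3:107438301-107460270 on the minus strand. It was deposited at 72.9 FPKM in Old 1 and 36.7 in Old 2, against 47.4 in Young 1 and 94.6 in Young 2, and scaled to 49.8 and 54.1 FPKM in Old and 69.2 and 64.4 in Young. Both old samples lay under both young samples, with means of 52.0 ± 3.05 (SD, n = 2) and 66.8 ± 3.39 (SD, n = 2). The log2 difference was −0.36 (SE 0.081, 95% interval −0.60 to −0.11) with an adjusted p of 0.078 in limma's test, and 30.4% of all tested genes differed by at least as much. The adjusted p in limma was 0.0436 with the filter raised to 1 FPKM in all 4 samples and 0.0111 with cyclic loess normalization. Those settings called 1278 of 7228 and 1395 of 10266 genes as lower. With quantile normalization the adjusted p of Kcnc4 in limma was 0.113. Of the 15 alternatives, 3 passed the threshold for Kcnc4.

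The potassium channel transcripts differed from each other in this. Kcna7 per Kcnc4 was 1.30 in Old 1, 1.28 in Old 2 and 1.08 in both young samples. Clcn1 per Kcna7, by contrast, was 0.866, 0.864, 0.860 and 0.860 in the 4 samples, so that the chloride channel and this potassium channel stood in nearly 1 proportion at both ages.

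**Figure D3:**
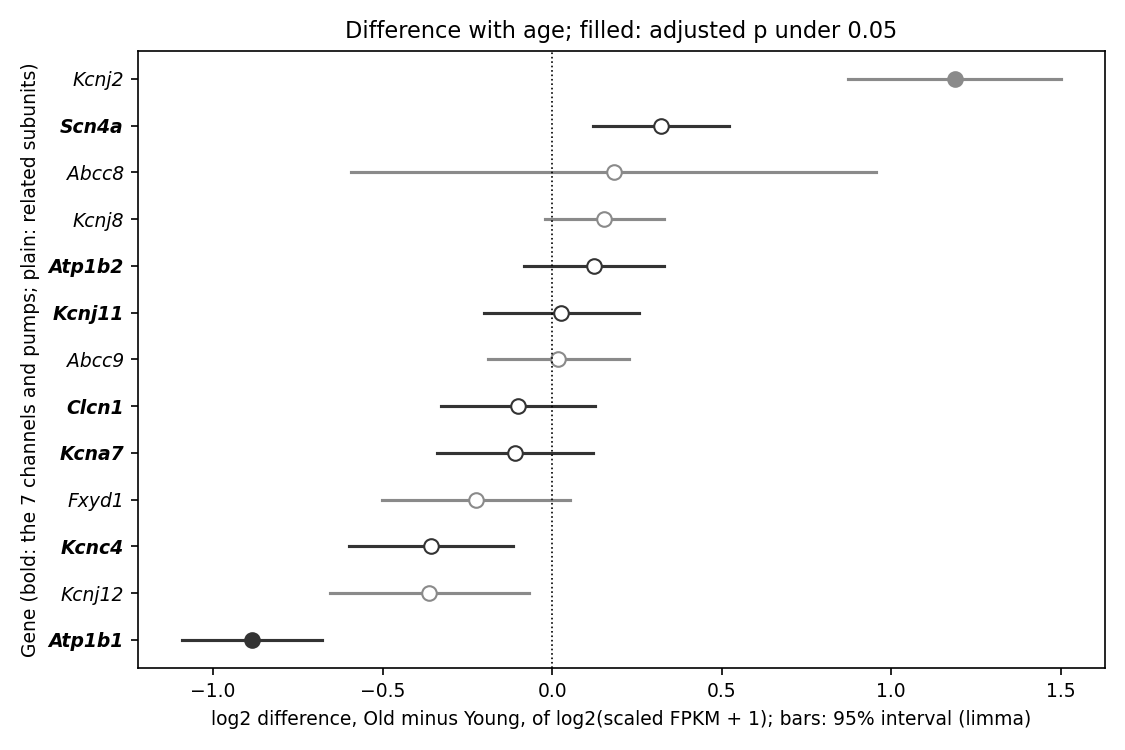
Difference of Old minus Young in log2(scaled FPKM + 1), with 95% intervals from limma, for the 7 channels and pumps (bold names, black) and related subunits and channels (grey), where filled points have an adjusted p under 0.05. Kcnj2 stands at 1.19, Atp1b1 at −0.88, and the other points are open.

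Of the 7 genes, 0 passed the test as higher in Old, against 5.06% of all tested genes (519 of 10266), and 1, or 14.3%, as lower, against 7.5% (770 of 10266). At an unadjusted p under 0.05 in limma, 1 was higher (Scn4a) and 2 lower (Atp1b1 and Kcnc4). The samples of the ages did not overlap for 2 of the 7 as higher in Old (Scn4a and Atp1b2), against 27.4% of all tested genes, and for 4 as lower (Clcn1, Atp1b1, Kcna7 and Kcnc4), against 28.5%. Their median log2 difference was −0.10, and that of all tested genes was −0.01. The deviations of Old 1 went with those of Young 2 and of Old 2 with those of Young 1, a pairing seen in the data and not given by the labels. With these pairs as a block in limma, Scn4a passed as higher, against 31.2% of all tested genes, and Atp1b1, Kcnc4, Clcn1 and Kcna7 as lower, against 34.3%. The pairs were taken from the same values that the block adjusts for, so these calls are not a valid test of age. With so few genes, these shares are given as a description, and nothing particular to the 7 is read from them.

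In Young, the order of the levels was Atp1b2, Atp1b1, Scn4a, Kcna7, Kcnc4, Clcn1 and Kcnj11, and each neighbour differed beyond the spread of its samples down to Kcnc4. Kcnc4 and Clcn1 overlapped, as did Clcn1 and Kcnj11. In Old, the order was Atp1b2, Scn4a, Kcna7, Atp1b1, Kcnj11, Clcn1 and Kcnc4, in which Kcna7 overlapped with Atp1b1 and Kcnj11 with Clcn1. Atp1b1 thus stood at rank 2 in both young samples and at rank 3 or 4 in the old ones, and Kcnc4 moved from rank 5 to rank 7. FPKM are per length of transcript, so levels can be set side by side between genes.

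Of the 21 ratios between pairs of the 7 genes, 21 did not overlap between ages, against 85.1% of the 121771 pairs among the 494 tested genes in the same range of levels, so nothing particular to the 7 is read from this count. Some of these differences were very small, down to the 1.01-fold of Clcn1 per Kcna7. The largest was Scn4a per Atp1b1, at 1.61 in Old 1 and 1.45 in Old 2, against 0.630 in Young 1 and 0.684 in Young 2, 2.33-fold higher in Old.

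For each of the 7 genes, the genes most like it over the 4 samples were sought among 5270 tested genes with a mean of at least 5 scaled FPKM, by the root mean square difference of log2(scaled FPKM + 1) after centring. The closest to Clcn1 was Kcna7, at 0.00429, followed by Sf1, a splicing factor, at 0.00433. Kcna7 was closest to Sf1 (0.00153) and then Clcn1, so a member of the 7 was among the 2 nearest genes only for this pair. Atp1b1 was nearest to Tmem50b (0.0156) and Pcolce (0.0163), an enhancer of procollagen processing, whose log2 differences were −0.88 and −0.86. Scn4a was nearest to Blvra and Fam82a1, Atp1b2 to Kif1b and Taco1, Kcnj11 to Cdc42se2 and Fbxo28, and Kcnc4 to Pex5 and Ssr2. With 4 samples many genes share a pattern, and the list is a description.

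Beyond the 7 genes, lists of ion channels and pumps of the excitable membrane held 136 genes, of which 115 had a value and 36 were tested. Of those with a value, 84 had a mean under 1 scaled FPKM, including all 13 potassium leak channels of the K2P family. Of the 36, 4 rose (11.1%, against 5.06% of all tested genes) and 5 fell (13.9%, against 7.5%), with a median log2 difference of −0.11. Without the 7 genes, 29 were tested, of which 4 rose and 4 fell, with a median of −0.11.

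Of the 8 tested chloride channels and anoctamins, 1 passed: Lrrc8a, the obligate subunit of the volume-regulated anion channel, was 2.81 and 2.82 scaled FPKM in Old and 7.06 and 6.49 in Young, and fell by 1.03 on the log2 scale (adjusted p in limma 0.0235). Of the 8 tested pump genes, 5 had a negative log2 difference, and Atp1b1 was the only one to pass as lower. Of 3 inward rectifiers outside the KATP channel, Kcnj2 passed as higher.

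Of 9 tested voltage-gated potassium channels, 2 were higher and 3 lower in Old, against 5.06% and 7.5% of all tested genes. This group had the most calls and also the most genes tested. Kcna5, a delayed rectifier of heart and smooth muscle, was 1.87 and 1.56 scaled FPKM in Old and 4.99 and 4.89 in Young, and fell by 1.13 on the log2 scale (adjusted p in limma 0.0246). Kcnc1, a relative of Kcnc4, was 22.1 and 23.3 scaled FPKM in Old and 38.9 and 38.7 in Young, and fell by 0.75 on the log2 scale (adjusted p in limma 0.0251). A smaller difference also passed for Kcnq5 (log2 difference 0.48), which was named after its values were seen. Of the 2 tested calcium-activated channels, 0 passed in limma, and both had an unadjusted p under 0.05 in opposite directions.

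As for Atp1b1, the calls on Kcnj2, Lrrc8a, Kcna5 and Kcnc1 each passed in 8 of the 15 alternatives. Fits with 1 sample left out cannot show whether these calls depended on that sample. Each of these 4 kept its direction in all 15 alternatives, with log2 differences from 1.10 to 1.28 for Kcnj2, −1.24 to −0.97 for Lrrc8a, −1.48 to −1.05 for Kcna5 and −0.79 to −0.71 for Kcnc1.

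**Figure D4:**
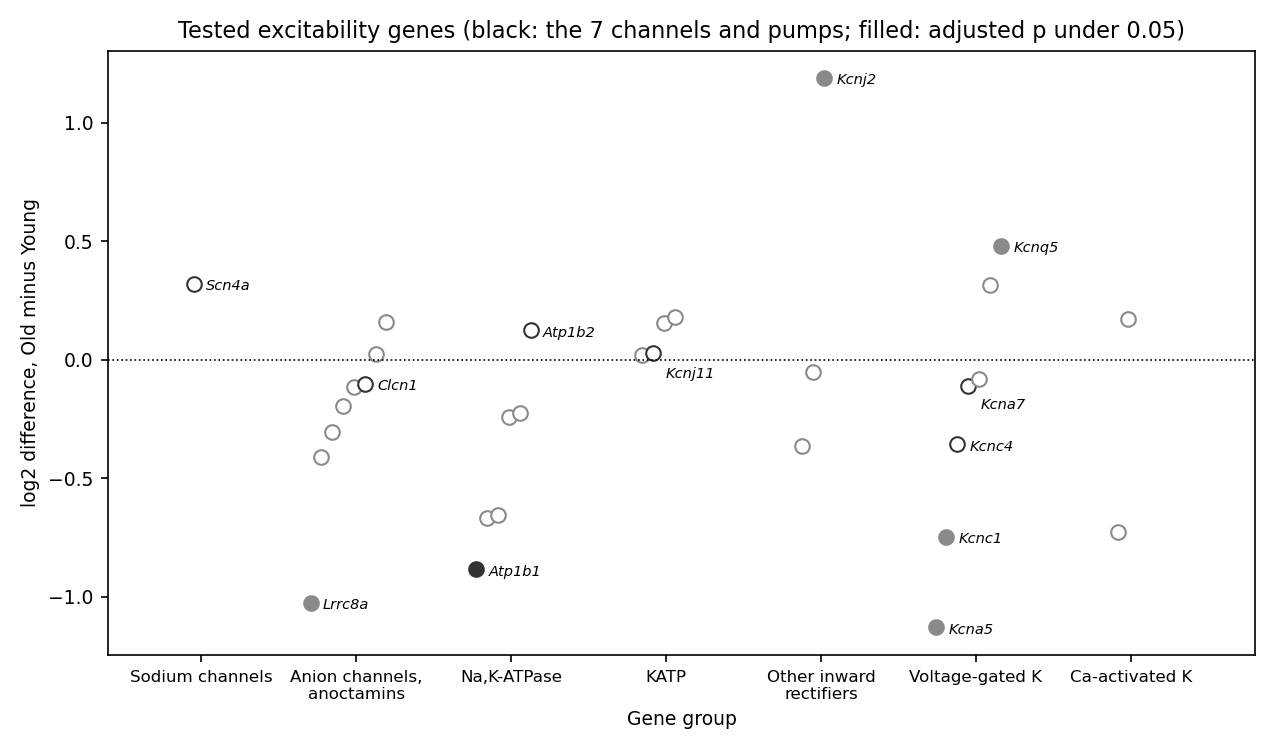
Difference of Old minus Young, in log2 units of scaled FPKM + 1, of 31 of the 36 tested genes by group, 1 point per gene, with the 7 channels and pumps in black, other genes in grey and filled points for an adjusted p under 0.05. Filled points lie on both sides of 0, from Kcnj2 at 1.19 to Kcna5 at −1.13, and most black points are open.

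Some marker transcripts of fibre types and of other cells of the muscle also differed between ages. The slow fibre markers rose, 6 of 6 tested, with a median log2 difference of 3.68 and a summed level of 876 and 680 scaled FPKM in Old against 52.4 and 60.6 in Young. Of 8 tested fast fibre markers, Myh1 rose and Tnnt3 fell, but Tnnt3 had only listed values of 0 in Old, Myh1 only values of 0 in Young, and Myh4, the main fast myosin of TA muscle, only 0 in all 4 samples. Other defining markers of muscle were present at both ages, among them Ryr1, Cacna1s and Mb, whereas Ckm was listed at 0 in all 4 samples, Ttn in both old samples and Neb in Old 2 and Young 1. Of 6 tested myofibre markers, 0 passed in limma, and 1 (Ttn) had an unadjusted p under 0.05. The summed level of the fast fibre list ranged from 23339 to 73490 scaled FPKM in Old and from 30694 to 59594 in Young. The part of the slow fibre genes in the differences of Atp1b1 and Kcnj2 was not tested.

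Some markers of several other cell types passed as lower in Old, as did 7.5% of all tested genes. The fibroblast list summed to 130 and 145 scaled FPKM in Old and 206 and 189 in Young, with 3 of 7 tested lower and a median log2 difference of −0.46. The 3 were the collagens Col1a1, Col1a2 and Col3a1. Dcn, a proteoglycan of these cells, was 81.8 and 91.2 scaled FPKM in Old and 74.4 and 66.0 in Young, and Pdgfra, their receptor marker, 1.96 and 1.98 in Old and 1.66 and 1.68 in Young. Both lay above Young in Old without overlap and did not pass (log2 differences 0.30 and 0.15). The Schwann cell list summed to 32.7 and 32.3 in Old and 48.7 and 47.2 in Young, with 2 of 4 lower (among them Pmp22, a myelin protein). Mbp (log2 difference −0.10) and Prx (0.05) did not pass. The endothelial list summed to 58.6 and 63.9 in Old and 83.3 and 75.2 in Young, with 2 of 7 lower. Its other tested genes did not pass, at −0.28 for Pecam1, −0.25 for Vwf, −0.09 for Emcn, 0.03 for Kdr and 0.004 for Tek. Of the mural and smooth muscle markers 1 of 6 was lower, and of the macrophage and leukocyte markers 1 of 7. Of 6 adipocyte and 3 satellite cell markers, 0 passed in limma. At an unadjusted p under 0.05, 1 adipocyte marker was higher in Old and 1 satellite cell marker lower. The haemoglobin alpha genes, which share 1 value here, rose by 2.78 on the log2 scale. No defining marker of fibroblasts, Schwann cells or endothelium was listed at 0 in all 4 samples. The part of these cells in the lower Atp1b1 was not tested, and in whole muscle fewer cells of a type and less RNA per cell cannot be told apart.

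Genes known to respond when a fibre loses its nerve were a further list. Of 8 tested, 2 rose, Chrne (log2 difference 0.37), the epsilon subunit of the adult acetylcholine receptor, and Hdac4 (0.88), a deacetylase that represses nerve-dependent genes, and 0 fell. The median was −0.07. Chrna1, Chrnb1 and Chrnd, the other tested receptor subunits, had log2 differences of −0.26, −0.20 and −0.32 and did not pass.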

How the data were processed

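RNA of TA muscle was sequenced from 2 Old and 2 Young samples, grouped by the titles of the samples in the labels. The authors trimmed reads, removed PCR duplicates, aligned them to mm10 with TopHat2 (2.0.10 in the submitters' processing notes, which also name Cuffdiff 2.1.1) and deposited FPKM per locus from Cufflinks for each sample. Reads of repeated or overlapping loci may be split between genes in such estimates. The kit is called stranded in the methods and not in the labels.

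Kept were 20605 loci that all 4 samples had (542 others, and 1 incomplete line per sample, were left out), and loci of 1 symbol were summed. Values ended on chromosome 7 or 8 in text order, and genes further on were not analysed here. Each sample was scaled to the same median over 7228 genes that reached 1 FPKM in every sample. log2(scaled FPKM + 1) was tested with limma 3.58.1 in R 4.3.3 (trend, two-sided, Benjamini-Hochberg over the 10266 genes reaching 1 FPKM in 2 or more samples, adjusted p under 0.05). Fold changes are on this scale and understate the change of low genes. Ratios within a sample and levels used FPKM without the pseudocount. On simulated data for Old against Young, with 9626 genes, noise with an SD of 0.06 and the factors between samples, the fit recovered 169 of 178 genes changed by a log2 of 0.3 with 11 false calls. Without scaling it recovered 0. The simulated noise was independent between samples and equal at all levels, and each factor was constant. In the data the spread and the factor varied with level, and deviations of samples went together. The simulated counts therefore do not measure the power of the test on these data.

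The 7 genes and all lists were chosen with earlier results of these data known. Named were the 7 genes, partner subunits, list genes past the threshold with a fold of at least 1.5, the 2 genes nearest to each of the 7, and defining markers. Some of the genes that this rule names are not reported here and not drawn. Alternatives were other scalings, filters, pseudocounts, variance models, blocks, a fold rule, the highest locus per symbol and leaving out each sample. The block on FPKM as deposited was added after seeing the data. Coordinates are 1-based. Promoters came from RefSeq. Tables used pandas 2.3.3 and numpy 2.4.6 under Python 3.11.15, exact tests scipy 1.17.1, and figures matplotlib 3.10.9.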

Additional observations from a re-analysis of the deposited data

How the results depend on the processing

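FPKM hold no counts, so depth sets no limit here that can be computed, and with 2 samples an age the spread between samples sets what limma can call. Over all tested genes, 519 were higher and 770 lower in Old. The counts higher and lower were 18 and 13 with FPKM as deposited, 119 and 188 with quantile normalization, 1135 and 1395 with cyclic loess, 0 and 0 with no filter, 1143 and 1278 when every sample had to reach 1 FPKM, 96 and 169 without the trend, and 313 and 458 with a fold of at least 1.5 as well. With no filter, 1464 and 1689 had an unadjusted p under 0.05. Leaving out 1 sample gave 1 to 348 higher and 2 to 452 lower, with the fewest higher without Young 1 (1) or Old 2 (3). The causes were not tested.

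Of the 7 genes, 0 were higher and 1 lower. The number higher was 1 with at least 1 FPKM in all 4 samples (Scn4a, log2 difference 0.32). The number lower was 0 with FPKM as deposited (Atp1b1 −0.89) and with no filter (−0.88), and 2 with cyclic loess (Kcnc4 −0.35) or when every sample had to reach 1 FPKM (Kcnc4 −0.36). It was 0 to 1 with 1 sample left out. Leaving out 1 sample moved the log2 difference of Atp1b1 from −0.92 to −0.85, and that of Kcnj11 from −0.027 to 0.082, negative without Old 2 (−0.027) or Young 2 (−0.016). At an unadjusted p under 0.05, 0 of the 7 passed as deposited and 1 higher and 2 lower with no filter.

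Of the 36 listed channel and pump genes, 4 were higher and 5 lower. These counts were 0 and 0 as deposited and with no filter, and 2 and 2 with quantile normalization. Without the trend 0 were higher. Lower were 11 with cyclic loess and 8 when every sample had to reach 1 FPKM. Leaving out 1 sample gave 0 to 3 higher and 0 to 4 lower, with 0 and 0 without Old 2 or Young 1. At an unadjusted p under 0.05, 0 passed as deposited, 6 higher and 12 lower with no filter, and 5 higher without the trend.

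The labels do not say that a replicate number marks a shared animal or batch. Samples of 1 number deviated from their age means in opposite directions (r = −0.903 across 10266 genes, −0.885 as deposited). With this number as a replicate block, 23 genes were higher and 20 lower, and 0 of the 7 (Atp1b1 −0.88, adjusted p in limma 0.228) and 0 of the listed genes passed, against 4 higher and 7 lower listed genes and 1 lower gene of the 7 at an unadjusted p under 0.05. The replicate block on FPKM as deposited gave 2 higher and 3 lower genes, and 0 of the 7 (Atp1b1 −0.89) and of the list, also at an unadjusted p. The pairing of Old 1 with Young 2 and Old 2 with Young 1 was taken from these same values, so its counts are not a valid test. With it as a block, 3204 genes were higher and 3521 lower. Of the 7, 1 was higher (Scn4a 0.32) and 4 lower (Clcn1 −0.10, Kcna7 −0.11, Kcnc4 −0.36 and Atp1b1). Of the list, 9 were higher and 18 lower.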
